A study of Homo sapiens with 30 samples.

Results

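The comparison described here set 3 arrays of human small airway epithelial (SAE) cells exposed to titanium dioxide nanobelts (TiO2) at 100 ug/ml for 1 h against 3 arrays of unexposed SAE cells cultured for 1 h, 6 of the 30 arrays in the series. The members were the arrays that carry these titles, and all 11963 genes with a usable probe set were compared. The series also holds SAE cells exposed to TiO2 at 10 ug/ml and to multi-walled carbon nanotubes (MWCNT) at 10 or 100 ug/ml, and the same conditions after 24 h, with 3 arrays in each of 10 groups. All groups were bought cells grown in the supplier's medium, plated in flasks with particles (or none) in the medium, and only cells still adherent after a wash gave RNA. The labels call the 3 arrays of a group biological replicates but do not say whether the flasks came from separate donors or days, so the p-values measure only the spread between these samples. The number of arrays limits the precision.

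TiO2 nanobelts are long, flat crystals of an otherwise inert white pigment, studied because inhaled fibres can lodge in small airways and be taken up by lining cells. When a cell meets a growth factor, a calcium influx or mechanical strain, kinases switch on a first wave of genes within minutes without new protein synthesis. These immediate early genes encode transcription factors such as EGR, NR4A, FOS and KLF proteins, followed by genes of the cytoskeleton controlled by serum response factor (SRF) and by genes controlled by YAP and TEAD, a pair that responds to tension and cell shape. The comparison asks which transcripts differ soon after the particles arrive.

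Expression is given as the log2 value of a probe set after the authors' normalisation, so a difference of 1 is a doubling. The medians of the 6 arrays lay between 7.15 and 7.18, beside 7.18 for the whole table. The SD of the difference between replicate arrays was taken over genes with a mean above the table median. It was 0.14 to 0.20 among the TiO2 100 arrays and 0.12 to 0.16 among the controls. The other 1 h groups gave 0.081 to 0.142. The widest of the 6 within-group gaps was between TiO2 replicates 2 and 3. Of 6 epithelial markers 3 were above the table median in these arrays, with KRT18 at 13.10 ± 0.03 in TiO2 100 cells and 13.24 ± 0.02 in controls (SD, n = 3 each) and KRT8 at 11.95 ± 0.21 in TiO2 100 cells and 12.01 ± 0.03 in controls. The basal keratin KRT5 lay near the table median at 7.29 in both groups and KRT14 was dim at 4.10 in TiO2 100 cells and 4.03 in controls, while the 5 secretory and 3 ciliated markers measured were all below the median. No member of the 8 marker lists passed the test (limma). The summed linear level of the 6 epithelial markers ranged from 12697 to 13718 in the TiO2 100 arrays and from 14214 to 14566 in the control arrays. A linear sum mostly reads the brightest markers, here KRT18 and KRT8. The mean log2 level of the 6 was 8.79 in the TiO2 100 arrays and 8.80 to 8.86 in the control arrays. The part of this gap in the results was not tested. The summed linear level of the 5 immune markers ranged from 342 to 361 in the TiO2 100 arrays and from 355 to 397 in the control arrays. PTPRC, which marks white blood cells, lay at 3.54 in TiO2 100 cells and 3.50 in controls, and CDH5, which marks endothelium, at 3.99 and 3.98 in the same order. In bulk RNA, fewer cells of a type and less RNA per cell cannot be told apart.

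After 1 h of TiO2 at 100 ug/ml, 208 genes rose and 46 fell, together 254 of 11963 or 2.12% (1.74% higher and 0.385% lower, limma with Benjamini-Hochberg adjustment over all genes, threshold 0.05). Rises were larger than falls. The median rise was 0.55 and the median fall -0.26, 96 genes rose by over 1.5-fold (0.802%) and 37 by over 2-fold, and no fall reached 1.5-fold. Of the 46 that fell 39 had a control mean above the table median, as did 157 of the 208 that rose. Over all 11963 genes tested, 6923 had a mean over the 30 arrays above it. Among the risers 206 had all 3 TiO2 100 arrays above all 3 control arrays, and all 46 fallers had no overlap. Over all genes tested, 12% had groups that did not overlap. Called genes were selected on these same arrays, so their lack of overlap largely follows from the call and is no separate support. The median difference over all genes was -0.03, and 4383 of 11963 were above 0. For a single gene, the smallest two-sided p of the exact permutation test with 3 and 3 arrays is 0.1; the calls come from limma, which pools variance over the 10 groups. With the fit limited to the 6 compared arrays 101 genes rose and 4 fell, and 33 of the genes named below lost their call; they are given with their p where they are described. The counts also depended on single arrays: 117 rose without TiO2 replicate 3, 120 without control replicate 1 and 122 without control replicate 2, and 155 fell without TiO2 replicate 2.

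**Figure D1:**
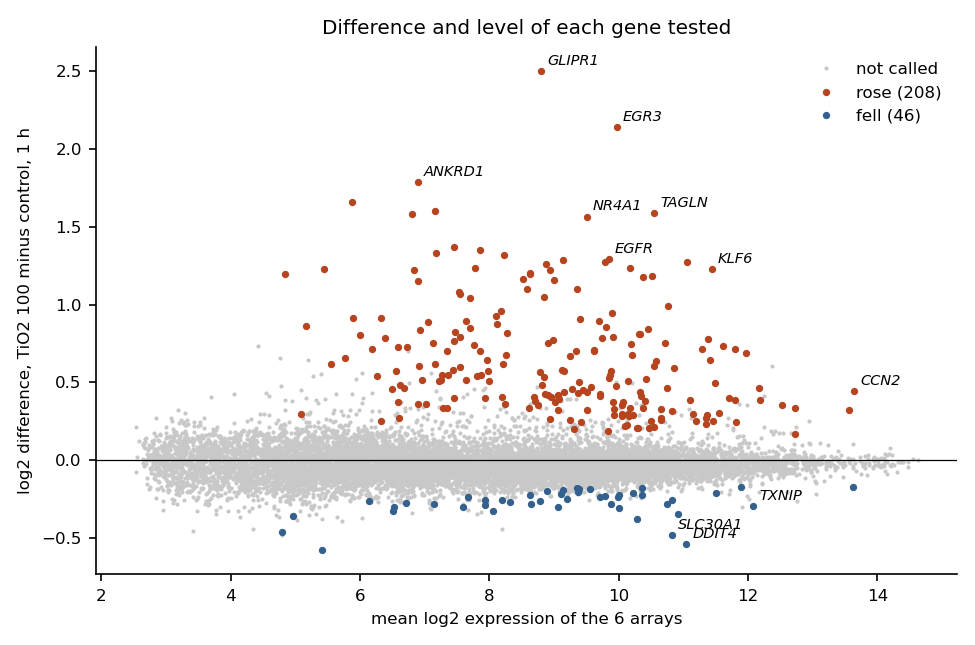
Log2 difference between TiO2 100 and control cells at 1 h (vertical axis) against the mean log2 expression of the 6 arrays (horizontal axis), 1 point per gene. Red points are the 208 genes that rose, blue points the 46 that fell and grey points genes that were not called; called genes lie farther above 0 than below it.

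Early transcription factors held the largest share of risers among the 31 lists. The lists were chosen with earlier results of these data known, so ranks and counts of lists are a description. Over all genes 1.74% rose, the share to hold beside the count of each list. Of 7 measured EGR, NR4A and SRF genes, 5 rose and 0 fell, with a list median of 0.68 against -0.03 over all genes. EGR3, a zinc finger factor induced by growth factor and calcium signals, measured 11.18, 10.83 and 11.11 in the TiO2 100 arrays, against 9.35, 8.72 and 8.63 in the control arrays. The groups were far apart, with control replicate 1 the highest of the controls, and the difference was 2.14 ± 0.17 (SE, adjusted p = 1.86e-08), a 4.41-fold rise. NR4A1, an orphan nuclear receptor of the same class, measured 10.23, 10.49 and 10.14 in TiO2 100 cells, against 8.70, 8.78 and 8.69 in controls. The rise was 1.57 ± 0.10 (adjusted p = 8.38e-11). The other bright probe sets of NR4A1, meaning those with a mean above the table median, differed by only 0.44 and -0.07, and the mean of all by 0.65. Its relative NR4A3 rose by 0.74 ± 0.15 (adjusted p = 0.00656) with controls tightly grouped at 7.41, 7.41 and 7.37. EGR4 rose by 0.47 ± 0.11 (adjusted p = 0.0154). EGR1, the best known member, had similar high values of 13.56, 13.64 and 13.73 in TiO2 100 cells and 13.71, 13.75 and 13.52 in controls, a difference of -0.02 ± 0.08 that did not pass. NR4A2 differed by 0.03. In unexposed cells all 5 risers of this list had a higher mean at 1 h than at 24 h, with EGR3 at 8.90 and 3.98 and SRF at 9.87 and 8.77. That difference between unexposed cultures was not tested here. The call of EGR4 was lost without TiO2 replicate 1, control replicate 1 or control replicate 3 (adjusted p up to 0.0836) and that of NR4A3 without TiO2 replicate 1 (adjusted p = 0.0533). With dim genes left out of the fit, EGR3, NR4A3 and EGR4 were not tested, and the 2 members called were NR4A1 and SRF. NR4A3 differed by 0.36, EGR4 by 0.92 and SRF by 0.45 with the mean of all probe sets, and all 3 stayed called.

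**Figure D2:**
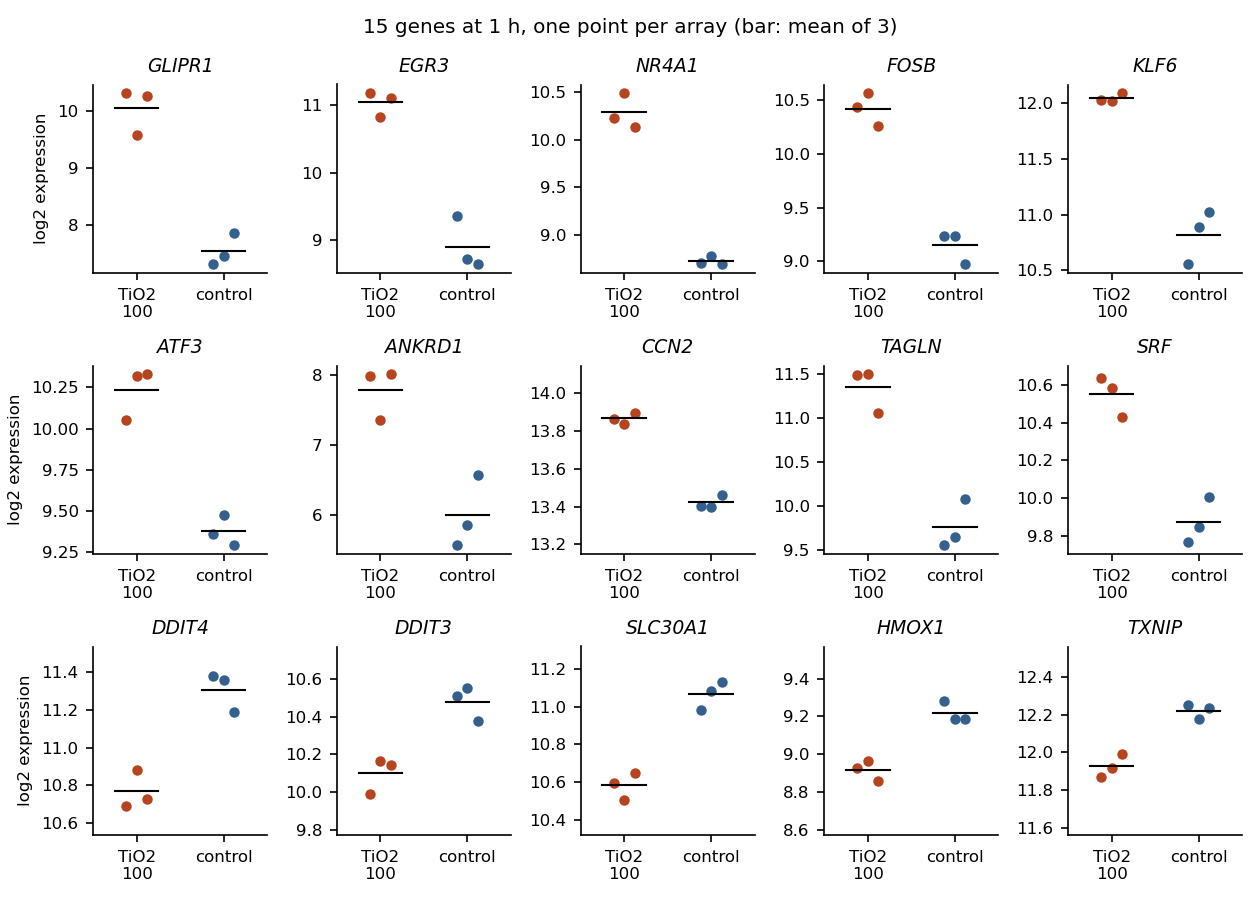
Log2 expression of 15 genes at 1 h, with 1 point per array, TiO2 100 on the left and control on the right of each panel, and a bar at the mean of 3 arrays. The vertical axes differ between panels; in all 15 panels the 3 TiO2 100 arrays and the 3 control arrays do not overlap.

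AP-1 is a dimer of FOS and JUN family proteins, and 4 of its 10 measured genes rose with 0 lower (median 0.29). FOSB measured 10.44, 10.57 and 10.26 in TiO2 100 cells, against 9.24, 9.24 and 8.97 in controls, and rose by 1.27 ± 0.14 (adjusted p = 3.73e-06), 2.42-fold. ATF3, a stress-induced factor that can pair with JUN, measured 10.05, 10.32 and 10.33 in TiO2 100 cells, against 9.36, 9.48 and 9.29 in controls. Its rise was 0.86 ± 0.11 (adjusted p = 2.83e-05), and the groups were separated by more than the spread within either. The smaller rises were FOSL1 by 0.43 ± 0.11 and FOSL2 by 0.40 ± 0.10. JUN was higher in all 3 TiO2 100 arrays, at 12.41, 12.49 and 12.45 against 12.15, 12.08 and 11.89 in controls, but its difference of 0.41 ± 0.12 missed the threshold (adjusted p = 0.081). FOS itself, the archetype of the family, differed by 0.11 ± 0.11 and JUNB by 0.06. FOSL1 lost its call without control replicates 1 or 2 or any TiO2 array (adjusted p up to 0.164), and FOSL2 without control replicates 1 or 2 or TiO2 replicates 1 or 2 (adjusted p up to 0.25). In the fit of 6 arrays both were lost (adjusted p = 0.118 for FOSL1 and 0.287 for FOSL2). With the mean of its probe sets FOSL2 differed by 0.21 (adjusted p = 0.056). With the replicate number as a block FOSL2 also lost its call (adjusted p = 0.0588).

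All 10 measured Kruppel-like factors, zinc finger regulators of growth and differentiation, had differences above 0 (median 0.19), and 3 rose. The 10 also stayed above 0 after the arrays were normalised again by cyclic loess. That step raised the median over all genes from -0.0281 to -0.0001, so this count adds no evidence. KLF6 measured 12.03, 12.03 and 12.09 in TiO2 100 cells, against 10.55, 10.89 and 11.02 in controls, and rose by 1.23 ± 0.11 (adjusted p = 1.2e-07). The TiO2 100 arrays were nearly identical while the controls spread, and a second bright probe set of KLF6 differed by 1.30. KLF7 was even tighter, at 9.38, 9.36 and 9.36 in TiO2 100 cells against 8.26, 8.25 and 8.44 in controls, a rise of 1.05 ± 0.07 (adjusted p = 3.62e-10). KLF2, a factor induced by fluid shear in endothelium, rose by 0.59 ± 0.11 (adjusted p = 0.00186, but 0.0665 in the fit of 6 arrays).

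A further list holds feedback inhibitors that ERK signalling induces. Of its 15 ERK feedback genes 2 rose and 0 fell (median 0.12): DUSP5, a nuclear phosphatase of ERK, by 0.35 ± 0.08 (adjusted p = 0.0144) and the early response protein IER3 by 0.39 ± 0.08 (adjusted p = 0.00709). DUSP1 and DUSP6, which are also induced by ERK, differed by 0.10 and 0.12 and did not pass. Among 19 genes of mRNA decay and other early responses 3 rose and 0 fell (median 0.13). These were RND3, a small GTPase that opposes RhoA, by 0.74 ± 0.10 (adjusted p = 2.83e-05), the kinase SGK1 by 0.51 ± 0.10 and ZFP36L1, which destabilises AU-rich mRNAs, by 0.43 ± 0.10. MYC differed by 0.22 ± 0.08 (adjusted p = 0.272). DUSP5 lost its call without control replicate 2 (difference 0.30, adjusted p = 0.116) or TiO2 replicate 3, IER3 without control replicate 1 (0.36, adjusted p = 0.051), and ZFP36L1 without control replicate 2 (0.32, adjusted p = 0.169) or TiO2 replicate 3. In the fit of 6 arrays the adjusted p was 0.112 for DUSP5 and 0.3 for ZFP36L1, and with the mean of its probe sets ZFP36L1 differed by 0.23.

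EGFR, the receptor through which EGF family ligands act on airway epithelium, was the one riser among 8 genes of the receptor and its ligands (0 fell, median 0.10). Its tested probe set measured 10.35, 10.46 and 10.65 in TiO2 100 cells, against 8.89, 9.16 and 9.54 in controls, a difference of 1.29 ± 0.32 (adjusted p = 0.0281). The other bright probe set of EGFR gave a mean of 9.90 in TiO2 100 cells and 9.91 in controls, a difference of -0.02. With the mean of all its probe sets the difference was 0.20 (adjusted p = 0.135), and leaving out control replicate 1 or 2 or any TiO2 array ended the call (differences of 1.14 to 1.36, adjusted p from 0.0526 to 0.166). The ligand EREG differed by 0.49 ± 0.15 and HBEGF by 0.14 ± 0.15, and neither passed.

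The list of SRF and actin cytoskeleton genes had the greatest number of risers, 9 of 23 with 0 lower (median 0.24), against 1.74% of all genes. This list, too, was chosen with earlier results of these data known, so its rank is a description. SRF binds the CArG box, a stretch of A and T between CC and GG, and with its actin-sensing partner MRTF drives genes of contractile filaments. SRF, counted in the EGR list, measured 10.64, 10.58 and 10.43 in TiO2 100 cells, against 9.77, 9.84 and 10.00 in controls. Its rise of 0.68 ± 0.06 (adjusted p = 1.2e-07) was 1.60-fold and the groups did not overlap. TAGLN, which stabilises actin bundles, measured 11.49, 11.50 and 11.05 in TiO2 100 cells, against 9.55, 9.65 and 10.08 in controls, and rose by 1.59 ± 0.18 (adjusted p = 4.53e-06). FILIP1L, a regulator of cell migration, measured 8.30, 7.75 and 7.83 in TiO2 100 cells, against 6.25, 6.36 and 6.46 in controls, a rise of 1.60 ± 0.14. The cytoskeletal linker EPPK1 rose by 1.20 ± 0.13 (adjusted p = 1.94e-06).

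Smaller rises came from tropomyosins, which coat actin filaments, and from linker proteins. TPM4 measured 9.25, 9.33 and 9.52 in TiO2 100 cells, against 8.45, 8.49 and 8.85 in controls, a rise of 0.77 ± 0.09 (adjusted p = 3.77e-06) with 0.77 on its second bright probe set. TPM1 rose by 0.46 ± 0.06, with 0.46 to 0.92 on its 3 other bright probe sets. VCL, which links actin to focal adhesions, rose by 0.50 ± 0.06 (adjusted p = 3.73e-06), although its second, dim probe set differed by -0.26 and the mean of both by 0.12 (adjusted p = 0.663). The nonmuscle myosin chain MYH9, the calponin CNN2 and the LIM protein FHL2 rose by 0.34, 0.29 and 0.24, and are named here although they fall outside the naming rule. Genes of the same list that did not pass included ACTA2 at -0.03, CNN1 at 0.08 and TPM2 at -0.09. ACTB, whose transcript was among the brightest, differed by 0.08. No member of the integrin and focal adhesion list passed (0 of 13 with limma, median 0.05, which was below 0 in 4 of 14 alternatives). At an unadjusted p under 0.05 limma gave 0 of the 13, against 1317 of 11963 over all genes.

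Upstream sequence is shown for SRF and for 3 risers of the actin list whose window holds a CArG box, so that the motif can be read beside the values above. Each window is the 250 bases before an annotated transcription start in RefSeq (build GRCh38.p14), written 5′ to 3′ on the strand of the gene, with CArG boxes in capitals. The SRF window, chr6:43171019-43171268 on the plus strand, holds 2 boxes whose first bases lie 30 and 10 bases before the start. The TPM4 window is chr19:16067288-16067537 (plus, box at 173 bases), the FHL2 window chr2:105438514-105438763 (minus, box at 101) and the CNN2 window chr19:1026358-1026607 (plus, box at 89).
SRF: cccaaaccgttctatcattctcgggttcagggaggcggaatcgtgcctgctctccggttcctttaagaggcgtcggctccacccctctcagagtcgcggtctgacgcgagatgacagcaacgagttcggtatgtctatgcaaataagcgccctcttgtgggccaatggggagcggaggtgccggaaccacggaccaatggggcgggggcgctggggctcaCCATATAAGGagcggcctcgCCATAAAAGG
TPM4: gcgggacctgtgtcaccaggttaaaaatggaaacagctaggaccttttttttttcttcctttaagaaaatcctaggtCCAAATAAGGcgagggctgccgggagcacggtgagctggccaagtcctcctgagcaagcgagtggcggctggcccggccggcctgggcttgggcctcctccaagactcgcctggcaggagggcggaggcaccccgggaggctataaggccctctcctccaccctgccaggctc
FHL2: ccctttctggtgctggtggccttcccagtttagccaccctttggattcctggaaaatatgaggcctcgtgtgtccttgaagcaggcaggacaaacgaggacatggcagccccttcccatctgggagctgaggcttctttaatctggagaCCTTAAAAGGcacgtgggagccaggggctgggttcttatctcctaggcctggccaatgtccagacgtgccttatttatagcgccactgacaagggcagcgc
CNN2: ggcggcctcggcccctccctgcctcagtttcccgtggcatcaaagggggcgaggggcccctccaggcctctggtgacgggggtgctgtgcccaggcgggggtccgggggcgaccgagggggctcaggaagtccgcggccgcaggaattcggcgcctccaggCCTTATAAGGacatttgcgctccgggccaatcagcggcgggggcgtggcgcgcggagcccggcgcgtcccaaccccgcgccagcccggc

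A CArG box on either strand was found in 1.16% of all 35116 such windows and in 1.23% of the 14035 windows of genes tested. The windows of genes that rose held one in 15 of 300 (5.0%), those of genes that fell in 0 of 49. Windows were found for 7 of the 9 risers of the actin list. Of their 13 windows 6 held a box, from 4 genes, against 1 of 26 windows of the other measured members. In the EGR and NR4A list 1 of 6 windows of risers held a box, as did the 1 window of the other measured members. Some genes have several annotated starts with overlapping windows, so windows are not independent. A match describes these letters in this window only.

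Targets of YAP and TEAD rose in 6 of 13 cases with 0 lower (median 0.21). ANKRD1, a nuclear ankyrin protein and a standard readout of YAP, measured 7.98, 7.35 and 8.01 in TiO2 100 cells, against 5.56, 5.86 and 6.57 in controls. It rose by 1.79 ± 0.22 (adjusted p = 2.02e-05), 3.45-fold, with the lowest TiO2 100 array still above the highest control. THBS1, which encodes thrombospondin, a matrix glycoprotein, measured 11.62, 11.73 and 11.73 in TiO2 100 cells, against 10.41, 10.15 and 10.69 in controls. It rose by 1.28 ± 0.17 (adjusted p = 4.72e-05), and its other bright probe sets differed by 1.40 and 1.75. F3, tissue factor, the cell-surface starter of coagulation, rose by 0.78 ± 0.11 (adjusted p = 0.000163) and was also the single riser among 7 plasminogen and tissue factor genes. CCN2 and CCN1, secreted matricellular proteins, were bright already and rose by 0.45 ± 0.07 and 0.32 ± 0.07. CCN2 measured 13.87, 13.84 and 13.90 in TiO2 100 cells against 13.40, 13.40 and 13.46 in controls. AMOTL2, which retains YAP in the cytoplasm, rose by 0.40 ± 0.05. The calls of AMOTL2 and CCN1 were lost in the fit of 6 arrays (adjusted p = 0.0793 and 0.116 in the same order), which left 4 called members. AXL, a receptor kinase in the list, differed by -0.04.

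TEAD proteins bind the letters GGAATG. The windows of CCN2, chr6:131951373-131951622 (minus strand), and of ANKRD1, chr10:90921088-90921337 (minus strand), are shown because they hold this motif more than once, in capitals, with first bases 169, 104 and 95 bases before the start in CCN2 and 220 and 128 in ANKRD1.
CCN2: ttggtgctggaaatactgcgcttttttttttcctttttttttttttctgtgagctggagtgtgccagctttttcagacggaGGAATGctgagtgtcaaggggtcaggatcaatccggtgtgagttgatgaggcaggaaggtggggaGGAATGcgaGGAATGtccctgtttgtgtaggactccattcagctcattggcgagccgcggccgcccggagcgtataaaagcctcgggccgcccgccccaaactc
ANKRD1: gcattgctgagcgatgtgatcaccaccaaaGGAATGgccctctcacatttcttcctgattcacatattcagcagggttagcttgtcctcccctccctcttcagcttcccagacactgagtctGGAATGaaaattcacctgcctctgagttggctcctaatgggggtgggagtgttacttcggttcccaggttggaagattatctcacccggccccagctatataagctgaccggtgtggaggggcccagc

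GGAATG on either strand occurred in 11.9% of all windows and 10.2% of windows of genes tested. In the YAP list 4 of 6 windows of risers and 3 of 5 windows of other measured members held it, and over all genes that rose the share was 12.3%.

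The gene with the largest rise of all was GLIPR1, a cysteine-rich protein known as a p53-inducible gene. It measured 10.31, 9.59 and 10.26 in TiO2 100 cells, against 7.31, 7.47 and 7.87 in controls, a rise of 2.50 ± 0.17 (adjusted p = 4.58e-10) or 5.67-fold. Its 2 other probe sets differed by 2.62 and 2.14. No other gene of the 15 in the p53 list rose, CDKN1A differed by 0.05 and MDM2 by -0.09, and GDF15 fell. GBP1, an interferon-inducible GTPase, measured 10.88, 10.67 and 10.85 in TiO2 100 cells against 9.72, 9.36 and 9.61 in controls, and rose by 1.23 ± 0.13 (adjusted p = 1.45e-06), with 1.75 on a second probe set. GBP family members are similar in sequence, so probe sets may share signal between them. Of the other 22 interferon response genes measured none rose and 2 fell: IRF9 by 0.26 and IRF1 by 0.19 on the log2 scale. The list median was -0.10, and -0.11 to -0.06 over the alternatives. Of all 23 members 19 were below 0, as were 7580 of 11963 over all genes. At an unadjusted p under 0.05 limma gave 10 of the 23, against 1317 of 11963 over all genes. The list as a set was not tested. The calls of IRF9 and IRF1 were each lost without any of 5 of the 6 arrays, all but TiO2 replicate 2 (adjusted p up to 0.137 for IRF9 and 0.18 for IRF1), in the fit of 6 arrays (0.331 for IRF9 and 0.623 for IRF1) and after cyclic loess (0.057 for IRF9 and 0.1 for IRF1).

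Several of the other largest risers encode proteins outside the early response. They were NAA15, a subunit of the N-terminal acetyltransferase, by 1.58 ± 0.34; the zinc finger protein ZNF12 by 1.37 ± 0.25; the basement membrane chain COL4A4 by 1.35 ± 0.20; the chromatin remodeller HELLS by 1.33 ± 0.24; and UGCG, which makes glucosylceramide, by 1.32 ± 0.19. ESF1, a ribosome biogenesis factor, rose by 1.29 ± 0.22, the sulfate transporter SLC26A2 by 1.26 ± 0.19, the transcription terminator TTF1 by 1.24 ± 0.19 and the forkhead factor FOXO3 by 1.22 ± 0.28. COL4A4 measured 8.50, 8.34 and 8.77 in TiO2 100 cells and 7.14, 7.05 and 7.36 in controls, with replicate 3 the highest of its group on both sides. The same held for HELLS, at 7.76, 7.57 and 8.21 in TiO2 100 cells and 6.37, 6.32 and 6.84 in controls. In NAA15 and ESF1, control replicate 3 was the highest control, but the highest TiO2 100 array was replicate 2 in NAA15 (7.89) and replicate 1 in ESF1 (9.96). A second bright probe set of TTF1 gave 8.12 in both groups, a difference of 0.00. NAA15 lost its call without TiO2 replicate 3, control replicate 1 or control replicate 2 (adjusted p up to 0.0731), and FOXO3 without TiO2 replicate 2 or 3 or control replicate 1 or 2 (1.03 to 1.14, adjusted p up to 0.122), and both in the fit of 6 arrays (adjusted p = 0.057 for NAA15 and 0.0928 for FOXO3). The rise of UGCG was 0.76 and that of TTF1 0.62 with the mean of all probe sets. Of 212 numbered ZNF genes 9 rose and 4 fell, with a median of -0.06.

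Among falls of genes above the table median, DDIT4 and SLC30A1 had the largest; the dim ZNF225, outside the naming rule, differed by -0.58 ± 0.12. DDIT4, which restrains the growth kinase mTOR under energy or oxygen shortage, measured 10.69, 10.88 and 10.73 in TiO2 100 cells, against 11.38, 11.36 and 11.19 in controls. It fell by 0.54 ± 0.10 on the log2 scale (adjusted p = 0.00163), 1.45-fold lower. TXNIP, an inhibitor of thioredoxin that reports glucose flux, measured 11.87, 11.92 and 11.99 in TiO2 100 cells against 12.25, 12.18 and 12.23 in controls, and fell by 0.29 ± 0.05 (adjusted p = 0.000282). These were the 2 called members of 6 energy stress genes (median -0.10).

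SLC30A1, the zinc exporter of the plasma membrane, measured 10.60, 10.51 and 10.65 in TiO2 100 cells, against 10.98, 11.08 and 11.13 in controls, and fell by 0.48 ± 0.07 (adjusted p = 4.97e-05). It is induced through MTF1, the same zinc sensor that controls metallothioneins, and all 8 measured genes of that list were lower in TiO2 100 cells, with a median of -0.22 that stayed between -0.26 and -0.17 under every alternative. Only SLC30A1 passed, and 1 to 6 members did over the alternatives. MT2A measured 12.99, 13.01 and 12.84 in TiO2 100 cells against 13.18, 13.14 and 13.17 in controls, a difference of -0.22 ± 0.09 (adjusted p = 0.348). MT1F averaged 11.76 ± 0.10 in TiO2 100 cells and 12.06 ± 0.07 in controls (SD, n = 3 each), a difference of -0.30 ± 0.12. The groups did not overlap for either gene. Metallothionein transcripts are nearly identical, so their probe sets may read each other and are not separate evidence.

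Among 17 genes of the ATF4 and amino acid stress response 3 fell and 1 rose (median -0.02), DDIT4 among the falls. DDIT3, the stress factor CHOP, measured 9.99, 10.17 and 10.14 in TiO2 100 cells against 10.51, 10.55 and 10.38 in controls, and fell by 0.38 ± 0.07 (adjusted p = 0.00186). GDF15, a secreted stress hormone, fell by 0.34 ± 0.08 (adjusted p = 0.0218), a call lost without TiO2 replicates 1 or 3 or control replicates 1 or 2 (adjusted p up to 0.141) and in the fit of 6 arrays (adjusted p = 0.123). With the mean of its probe sets, of which the second is dim and differed by 0.21, GDF15 differed by -0.0652 (adjusted p = 0.805). The amino acid stress markers ASNS, TRIB3 and PSAT1 differed by -0.02, -0.10 and -0.08 and did not pass, while STC2 rose by 0.21 with a call lost without any of 5 arrays, all but TiO2 replicate 1 (adjusted p up to 0.262) and at 0.527 in the fit of 6 arrays. HMOX1, the haem oxygenase that NRF2 and haem induce, measured 8.93, 8.96 and 8.86 in TiO2 100 cells against 9.28, 9.19 and 9.19 in controls, a fall of 0.30 ± 0.06 (adjusted p = 0.00294). The malic enzyme ME1 was the one riser of 17 NRF2 targets, by 0.20, lost without any of 5 arrays (all but TiO2 replicate 2, adjusted p up to 0.295) and at -0.04 on its second bright probe set. ME1 differed by 0.042 (adjusted p = 0.884) with the mean of its probe sets, and its adjusted p was 0.579 in the fit of 6 arrays. NQO1 and GCLM differed by -0.06 and 0.02. The NRF2 list had a median of 0.00, and 0 to 2 of its members were called over the alternatives.

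The remaining named falls were between 0.27 and 0.33 on the log2 scale. They included the organic anion transporter SLCO4A1, AVPI1, the telomere-binding zinc finger ZBTB48, the G1 cyclin CCNE1, the stress protein NUPR1 and the scaffold HOMER3. AVPI1 fell by 0.31 ± 0.06 (adjusted p = 0.00499) and HOMER3 by 0.27 ± 0.05 (adjusted p = 0.0024), and neither lost its call when any single array was left out. With the mean of its probe sets, however, HOMER3 differed by -0.15 (adjusted p = 0.0911), and its second bright probe set by -0.09. With only the 6 compared arrays in the fit, the calls of DDIT3, AVPI1, HMOX1, TXNIP and HOMER3 were lost (adjusted p = 0.102, 0.209, 0.13, 0.142 and 0.201 in the same order). SLCO4A1, ZBTB48, CCNE1, ZNHIT2 and NUPR1 each lost it without 3 to 5 of the 6 arrays, ARL6IP4 without TiO2 replicates 1 or 3 or control replicate 2, and CCDC85B without control replicate 2 (-0.24, adjusted p = 0.0546). In the fit of 6 arrays the adjusted p of these 7 genes ran from 0.282 to 0.44.

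**Figure D3:**
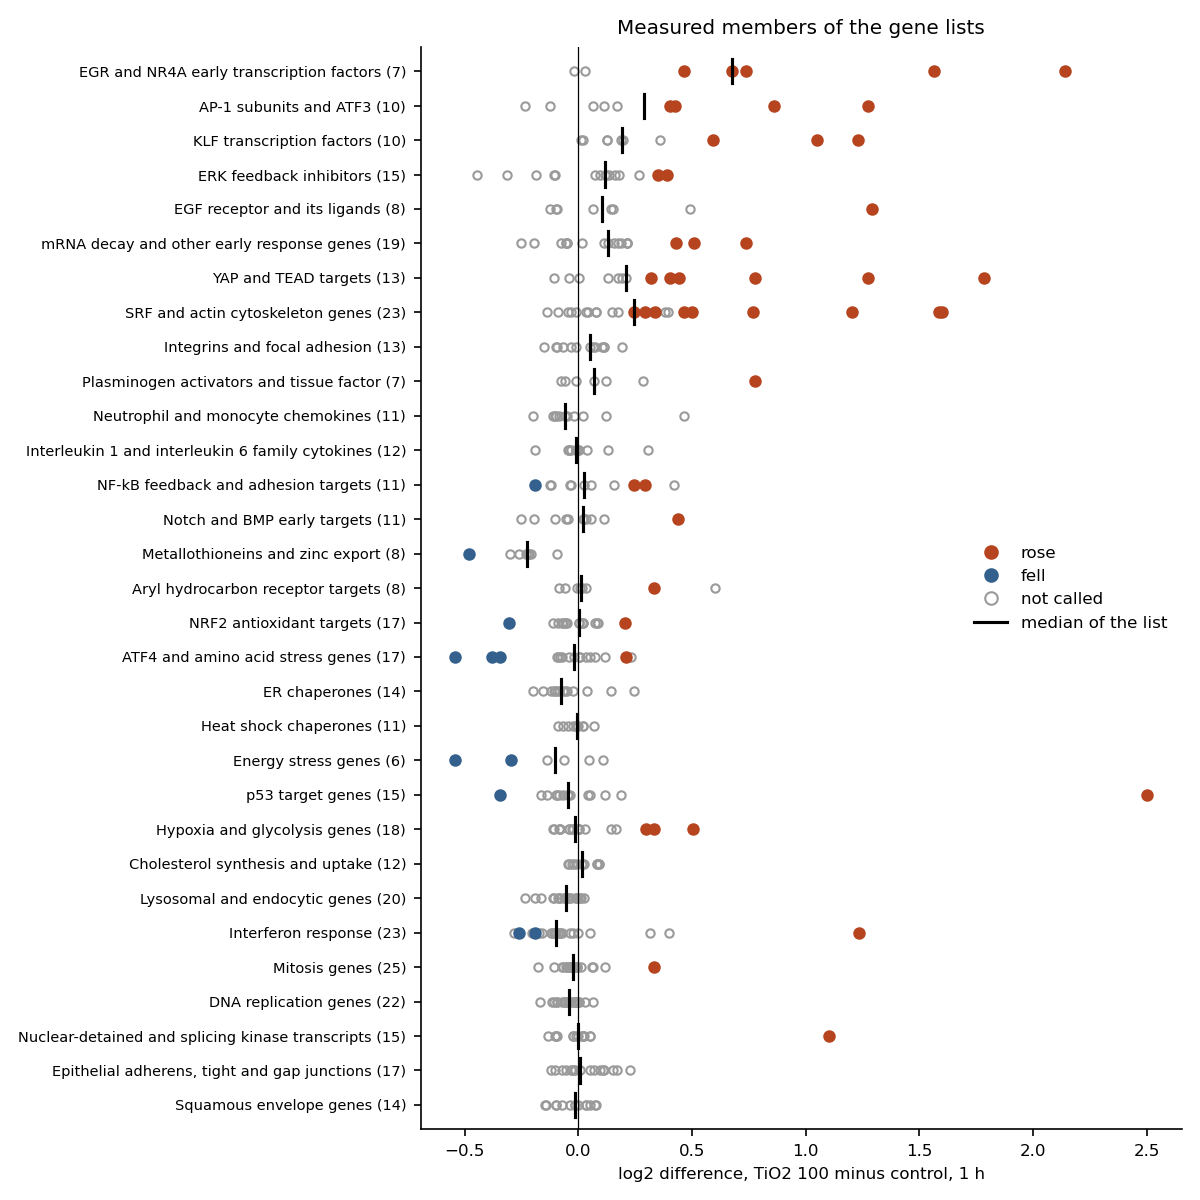
Log2 difference between TiO2 100 and control cells at 1 h for every measured member of 31 gene lists, with the number measured in brackets. Filled red points rose, filled blue points fell, open points were not called and black bars mark list medians; the early transcription factor, KLF, YAP and actin lists lie mostly right of 0 and the metallothionein list lies left of it.

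Inflammatory genes showed few changes at 1 h. None of 11 chemokines and none of 12 interleukin 1 and interleukin 6 family cytokines passed with limma. At an unadjusted p under 0.05 the counts were 0 and 1, against 1317 of 11963 over all genes. CXCL8, the main neutrophil attractant of airway cells, was below the table median in most arrays, at 6.86, 6.96 and 7.33 in TiO2 100 cells and 7.06, 6.87 and 6.87 in controls. CCL20 had the largest difference of the chemokines, 0.47 ± 0.24 (adjusted p = 0.487), and IL6 differed by -0.04. In the NF-kB list of 11, NFKBIA, the feedback inhibitor of the pathway, rose by 0.30 ± 0.07 and the adhesion molecule ICAM1 by 0.25 ± 0.06, IRF1 fell, and TNFAIP3 at 0.42 ± 0.12 missed the threshold (adjusted p = 0.0713). The call of NFKBIA was lost without control replicates 1 or 2 or TiO2 replicates 2 or 3 (adjusted p up to 0.155) and that of ICAM1 without control replicate 1 or TiO2 replicate 2 (adjusted p up to 0.131). JAG1, a Notch ligand, was the single riser of 11 Notch and BMP genes, by 0.44 ± 0.09 with 0.45 on a second probe set. Its call was lost without TiO2 replicate 1 (adjusted p = 0.052) or control replicate 2 (adjusted p = 0.062). In the fit of 6 arrays the adjusted p was 0.201 for NFKBIA, 0.52 for ICAM1 and 0.0853 for JAG1.

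Genes of metabolism, growth and protein quality differed little. Of 18 hypoxia and glycolysis genes 3 rose: the histone demethylase KDM3A by 0.50 ± 0.06 (adjusted p = 2.79e-05), the glycolysis regulator PFKFB3 by 0.33 ± 0.09 and the peptide hormone ADM by 0.30 ± 0.08, while VEGFA and SLC2A1 differed by 0.00 and -0.04. PFKFB3 and ADM each lost the call without 4 or 5 of the 6 arrays and in the fit of 6 arrays (adjusted p = 0.203 for PFKFB3 and 0.52 for ADM). No member passed among 14 endoplasmic reticulum chaperones, 11 heat shock chaperones, 12 cholesterol genes, 20 lysosomal genes, 22 DNA replication genes, 17 junction genes and 14 squamous envelope genes, and their medians lay between -0.08 and 0.02. At an unadjusted p under 0.05 limma gave 5, 0, 0, 3, 1, 2 and 0 of these genes in the same order. Over all genes 1317 of 11963 met that threshold. Among the 14 endoplasmic reticulum chaperones 11 differences were below 0, as were 7580 of 11963 over all genes. One of 25 mitosis genes rose, KIF23 by 0.33 ± 0.08, with the call lost without any of 5 arrays (all but TiO2 replicate 2) and in the fit of 6 arrays (adjusted p = 0.0781). NKTR rose by 1.10 ± 0.23 as the single riser among 15 nuclear-detained and splicing kinase transcripts, with 1.47 and -0.09 on its other bright probe sets. Its call was lost without control replicate 1 (0.95, adjusted p = 0.0752) or TiO2 replicate 3 (1.04, adjusted p = 0.0577).

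The design gives 2 direct comparisons of the TiO2 100 arrays at 1 h that do not use the controls. Against TiO2 at 10 ug/ml, 32 genes were higher at 100 ug/ml (0.267%) and 3 lower (0.0251%), together 0.293% of genes tested. GLIPR1 was higher by 1.27 ± 0.17 (adjusted p = 0.000285), EGR3 by 1.26 ± 0.17, FILIP1L by 1.25 ± 0.14, NR4A1 by 1.08 ± 0.10 and GBP1 by 0.88 ± 0.13. TAGLN, FOSB, NR4A3, the prostaglandin receptor PTGER4 and the BMP antagonist GREM1 followed with differences of 0.86, 0.85, 0.81, 0.77 and 0.74. The 3 genes lower at 100 ug/ml were DDIT4, SLC30A1 and TXNIP, by 0.45, 0.40 and 0.21. TAGLN (5 of 6 arrays), NR4A3 and GREM1 (4 of 6 each) lost this call when single arrays were left out. With the replicate number as a block TAGLN also lost it (adjusted p = 0.0735). With only the 6 compared arrays in the fit 11 genes were called, and GLIPR1 (adjusted p = 0.0837), FOSB (0.0806), TAGLN (0.0806), NR4A3 (0.103) and GREM1 (0.101) were not among them. NR4A1, NR4A3 and PTGER4 stayed called with the mean of all probe sets, at 0.48, 0.34 and 0.42.

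Of the 208 genes that rose against the control, 31 were also higher at 100 than at 10 ug/ml and for 177 no difference between the doses was called. The median difference from the control was 0.75 at 100 ug/ml for the 31, with 0.22 at 10 ug/ml. It was 0.52 at 100 ug/ml for the 177, with 0.42 at 10 ug/ml. TiO2 at 10 ug/ml against the control called 85 genes in all (0.711%), 84 higher (0.702%) and 1 lower (0.00836%). Both doses share the 3 control arrays, and the 31 were chosen by a test that uses the TiO2 100 arrays, so these medians are a description. The 31 contained EGR3, NR4A1, NR4A3, FOSB, ATF3, SRF, KLF7, GLIPR1, TAGLN, FILIP1L, EPPK1, RND3, F3, AMOTL2, TPM1, DUSP5 and KDM3A. The 177 contained KLF6, ANKRD1, THBS1, CCN1, CCN2 and TPM4 as well as EGFR, FOXO3, ZNF12, COL4A4, HELLS, UGCG, ESF1 and TTF1. COL4A4 differed from the control by 1.16 at 10 ug/ml and 1.35 at 100 ug/ml, and ZNF12 by 1.38 and 1.37 in the same order. SRF differed by 0.28 at 10 ug/ml and 0.68 at 100 ug/ml.

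**Figure D4:**
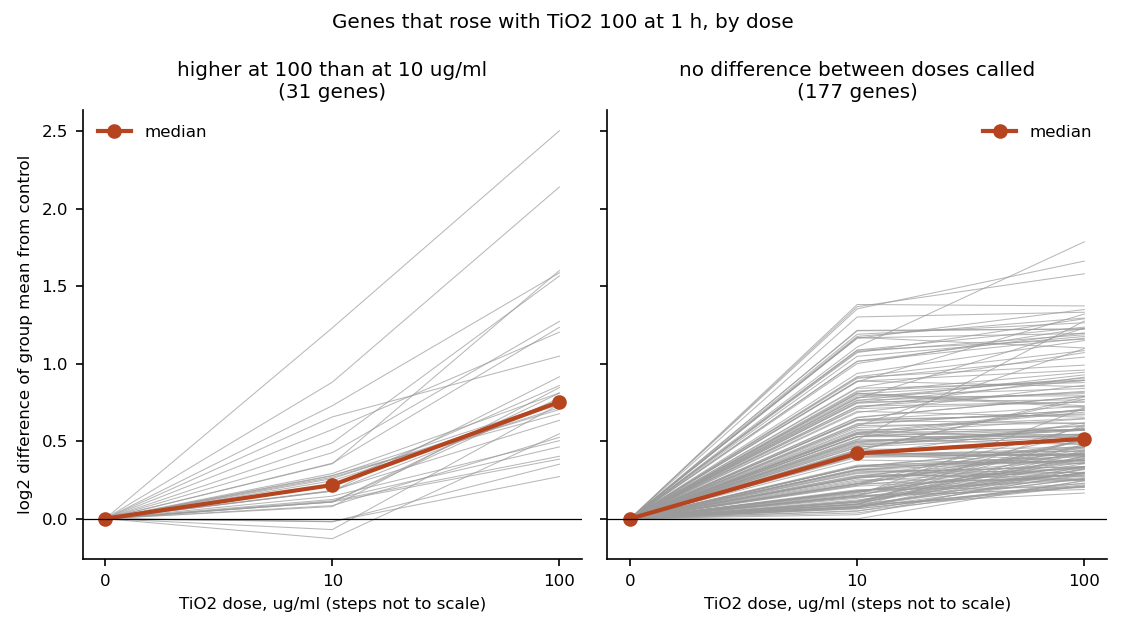
Log2 difference of the group mean from the 1 h control at 0, 10 and 100 ug/ml TiO2 for 31 genes also higher at 100 than at 10 ug/ml (left) and 177 genes for which no difference between the doses was called (right), 1 grey line per gene and the median in red. The steps of the dose axis are not to scale; the median reaches 0.22 and then 0.75 on the left, and 0.42 and then 0.52 on the right.

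Array order and the other probe sets of both gene sets are given as a description. Among the 177, control replicate 3 was the highest of the 3 controls for 143 genes and TiO2 replicate 3 the highest of the 3 TiO2 100 arrays for 130. Among the 31 the counts were 13 and 10, and over all genes tested 3417 and 4423 of 11963. Bright second probe sets existed for 66 of the 177 and gave a median of 0.18 where the tested ones gave 0.51. In 30 of 66 the absolute size of their difference, whatever its direction, was at least 0.5 of the tested one. For the 7 such genes among the 31, the other probe sets gave 0.56 against 0.81, and 6 of 7 reached that absolute size. The SD over the 3 unexposed arrays at 24 h had a median of 0.29 for the 177, 0.13 for the 31 and 0.10 for all genes, while at 1 h the unexposed arrays gave 0.15, 0.11 and 0.09 in the same order. The part of these array and probe set patterns in the rises of the 177 was not tested.

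**Figure D5:**
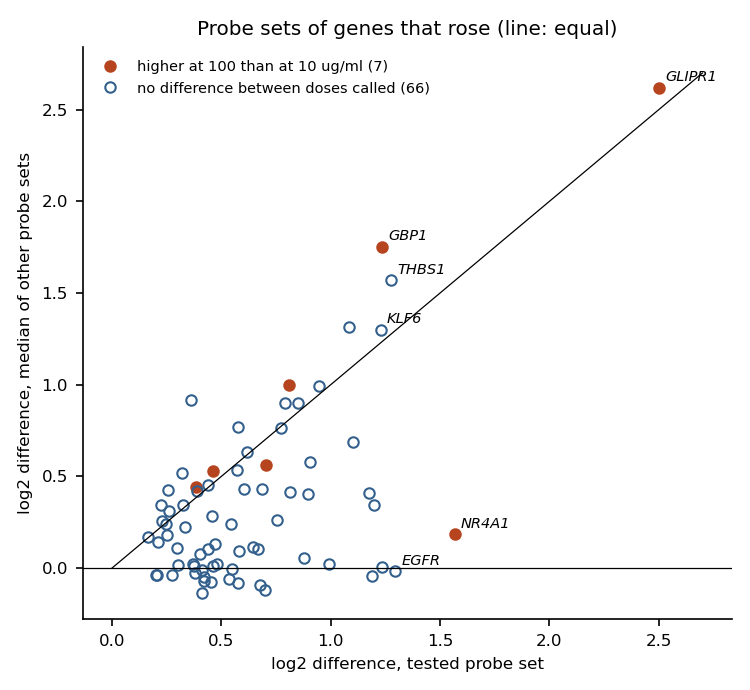
Log2 difference between TiO2 100 and control cells at 1 h on the tested probe set (horizontal axis) and as the median of the other probe sets above the table median (vertical axis) for the 73 risers that have one. Filled red points are genes also higher at 100 than at 10 ug/ml, open blue points the others, and the line marks equal differences; GLIPR1, GBP1, THBS1 and KLF6 lie on or above the line and EGFR lies at 0 on the vertical axis.

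Against MWCNT at 100 ug/ml, a carbon fibre of another composition at the same nominal mass dose, 2 genes differed (0.0167%), both higher with TiO2. TIPARP, an ADP-ribosyltransferase that feeds back on the aryl hydrocarbon receptor (AhR), measured 12.88, 12.84 and 12.94 in TiO2 100 cells, and was higher than in MWCNT 100 cells by 1.17 ± 0.08 (adjusted p = 4.2e-09). CYP1B1, a cytochrome P450 and AhR target, was higher than in MWCNT 100 cells by 1.63 ± 0.24 (adjusted p = 0.00305). Against the control TIPARP rose by 0.33 ± 0.08 with TiO2 100 (adjusted p = 0.0266), a call lost without any of 5 arrays (all but TiO2 replicate 2, adjusted p up to 0.137) and in the fit of 6 arrays (adjusted p = 0.0678). CYP1B1 differed from the control by 0.60 ± 0.24 (adjusted p = 0.3), at 12.68, 12.59 and 12.73 in TiO2 100 cells and 11.88, 12.08 and 12.22 in controls, and CYP1A1 by 0.01. On its tested probe set CYP1B1 passed in a limma fit of only the 6 compared arrays (adjusted p = 0.0248). It also passed in a fit of only the 15 arrays of 1 h (adjusted p = 0.000614). The other bright probe sets of CYP1B1 disagreed, with differences from the control of 0.85 and 0.0046. The particles share the controls, so their differences from the control are given side by side only. With MWCNT 100 both genes fell against the control, TIPARP by 0.83 (adjusted p = 2.9e-07) and CYP1B1 by 1.03 (adjusted p = 0.0227) on the log2 scale. MWCNT 100 against the control called 203 genes (1.7%), 151 higher (1.26%) and 52 lower (0.435%). EGR3 differed by 2.14 with TiO2 100 and by 2.48 with MWCNT 100, GLIPR1 by 2.50 and 2.29, DDIT4 by -0.54 and -0.93, and IER3 by 0.39 and -0.03. That only 2 genes were called does not show that the particles act alike. Under the alternatives, 2 to 10 genes were called.

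The last comparison asked whether the TiO2 100 effect differs between 24 h and 1 h, each against its own controls, and 263 genes (2.2%) passed this test of the difference, 120 with a higher effect at 24 h (1%) and 143 with a lower one (1.2%). At 24 h alone TiO2 100 against its control called 1577 genes (13.2%), 514 higher (4.3%) and 1063 lower (8.89%). The largest risers of 1 h and the largest fallers were looked up. EGR3 differed from its control by 0.29 ± 0.17 at 24 h and 2.14 at 1 h, and its level at 24 h was 4.27 ± 0.21 in TiO2 100 cells and 3.98 ± 0.25 in controls (SD, n = 3 each). The effect at 24 h minus that at 1 h was -1.85 ± 0.25 for EGR3, -1.99 ± 0.24 for GLIPR1, -1.79 ± 0.20 for FILIP1L, -1.70 ± 0.32 for ANKRD1, -1.35 ± 0.13 for NR4A1 and -0.998 ± 0.26 for TAGLN, the last lost without any of 8 single arrays of 12 (adjusted p up to 0.111). In the fit of the 4 groups compared TAGLN (adjusted p = 0.142), ANKRD1 (0.0753) and SLC30A1 (0.0852) were not called. The mean of its probe sets gave -0.55 for NR4A1. GLIPR1 still differed from its control at 24 h, by 0.52 ± 0.17 (adjusted p = 0.0457), as did TAGLN by 0.59 ± 0.18 (adjusted p = 0.0353). For DDIT4 the difference from the control at 24 h was 0.18 ± 0.10 (adjusted p = 0.2), and the effect at 24 h exceeded that at 1 h by 0.73 ± 0.14 (adjusted p = 0.00467). SLC30A1 exceeded it by 0.41 ± 0.09.

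For NAA15, ZNF12, COL4A4 and HELLS, the effects at 24 h of 0.50, 0.59, 0.38 and 0.57 were not shown to differ from those at 1 h. Their control arrays at 24 h spread widely, with an SD of 1.04, 0.84, 0.70 and 0.78 in the same order. Without control replicate 1 at 24 h the difference between the times passed for all 4 (adjusted p = 0.0147, 0.0023, 3.14e-05 and 0.00409 in the same order), with values of -1.64, -1.26, -1.37 and -1.21. DDIT3, GDF15 and SLCO4A1, which fell at 1 h, differed from their controls at 24 h by -0.21 (adjusted p = 0.046), -0.16 and -0.24, and a difference between the times was not called for them.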

How the data were processed

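RNA of 30 cultures was measured on Affymetrix arrays. The deposited values are log2 expression per probe set, which the authors made with RMA per the submitters' processing notes (version and genome build not given in the sources used here). RMA sets array distributions equal, which can hide a shift common to all genes. The table held 22277 probe sets. A gene needed 1 platform symbol and was represented by its brightest probe set, averaged over all 30 arrays, which left 11963 genes. One linear model with a mean for each of 10 groups was fitted in limma 3.58.1 (R 4.3.3; statmod 1.5.0), two-sided, with p-values adjusted by Benjamini-Hochberg over all genes and 0.05 as threshold; "rose" and "fell" mean that a gene passed. In data simulated for TiO2 100 against control at 1 h (11963 genes), 86% of changes of 0.5 and 100% of changes of 1 were recovered. The same data gave 13 false calls. Recovery under the unequal group spreads and shared array patterns described above was not tested.

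Genes named are up to 20 that rose and 15 that fell the most, with no overlap and a higher mean above the table median, up to 6 called members of each of 31 lists or its largest difference, and up to 10 genes per direct comparison. Any other gene named was picked with its values in view. The members and lists were chosen with earlier results of these data known. "Bright" probe sets have a mean above the table median of 7.18. Same-numbered TiO2 100 and TiO2 10 arrays at 1 h deviated together (correlations of 0.151 to 0.466, other numbers -0.4 to 0.093). Same-numbered TiO2 100 and MWCNT 100 arrays did not (-0.241, -0.463 and 0.359, other numbers up to 0.546). Deviations of 3 arrays from their own mean are not independent, so these correlations cannot establish a pairing. The labels do not say what the replicate number marks. Sequences are RefSeq, GRCh38.p14. Genes that can show a donor's sex (24) were left out of the gene tables. Alternatives were cyclic loess, a filter on dim genes, array weights, an intensity trend with robust variances, the mean of a gene's probe sets, fits on fewer arrays, a replicate block and leaving out each array. Tables and figures were made in Python 3.11.15 (numpy 2.4.6, pandas 2.3.3, matplotlib 3.10.9).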

Additional observations from a re-analysis of the deposited data

Results flagged for a closer look

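The effect of TiO2 at 100 ug/ml differed between 24 h and 1 h for 263 genes in a test of the difference itself, each time against its own controls. Of the 15 genes looked up, 8 passed that test. The effect at 24 h minus that at 1 h was -1.99 for GLIPR1, -1.85 for EGR3, -1.79 for FILIP1L, -1.70 for ANKRD1, -1.35 for NR4A1 and -0.998 for TAGLN. It was 0.73 for DDIT4 and 0.41 for SLC30A1, which had fallen at 1 h. The TAGLN call was lost in 8 of 12 fits that left out 1 array and also with cyclic loess, array weights, the robust trend, the replicate block and the fit of the compared groups (adjusted p from 0.052 to 0.142 over these 5). ANKRD1 (adjusted p = 0.0753) and SLC30A1 (adjusted p = 0.0852) lost the call in the fit of the compared groups. The cause of these differences was not tested.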

How the results depend on the processing

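Replicate numbers gave no clear pairing of TiO2 100 with control arrays at 1 h. Deviations of same-numbered arrays correlated at -0.092, 0.213 and 0.21, those of other numbers at -0.353 to 0.219. Among the 208 risers, however, replicate 3 was the highest control array for 156 and the highest TiO2 100 array for 140. Same-numbered arrays of the TiO2 doses correlated more than others, but those of TiO2 100 and MWCNT 100 did not, so a pairing is not established. Of the 10 genes with the largest dose differences TAGLN alone lost its call under the block (adjusted p = 0.0735). A replicate block gave 254 calls (208 higher, 46 lower), 34 against TiO2 10 and 243 between the times. When the fit held only the groups compared, 105 genes changed against the control (101 higher, 4 lower), 11 against TiO2 10 and 46 between the times. Array weights gave 115 lower, 5 against MWCNT 100, 68 against TiO2 10 and 634 between the times. The filter on dim genes gave 87 lower and 10 against MWCNT 100, cyclic loess 27 lower, the robust trend 7 and the 15 arrays of 1 h alone 4 against MWCNT 100. Leaving out 1 array gave 143 to 374 changed genes (117 to 219 higher, 21 to 155 lower), 2 against MWCNT 100 throughout, 21 to 29 against TiO2 10 and 143 to 399 between the times. The lowest totals against the control came without control replicate 2 (143), control replicate 1 (144) and TiO2 replicate 3 (145), and the highest without TiO2 replicate 2 (374). Against TiO2 10 they came without TiO2 10 replicates 2 (21) and 1 (23). Between the times they came without control replicates 1 (172) and 2 (143) and TiO2 replicate 3 (143) of 1 h, and TiO2 replicates 1 (164) and 3 (147) of 24 h, and the highest without control replicate 1 of 24 h (399). Of 71 named genes called against the control, 32 kept the call in every alternative that gave them a value (13 or 14 each, since the filter removed some dim genes) and 39 lost it in at least 1; 33 were lost in the fit of the compared groups and 4 to the block. With the mean of all probe sets CCDC85B turned to 0.0189 (adjusted p = 0.969) and the uncalled difference between the times of GDF15 to -0.0195, as did that of SLCO4A1 without control replicate 3 of 1 h (-0.0184, highest 0.1712 without control replicate 2). The cause was not tested.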
